A study of Mus musculus with 2 samples.

Results

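The genes described here encode molecular chaperones of the cytosol and mitochondria and their co-chaperones. They were chosen by gene name, with earlier results of these data known. The choice took the Hsp70, Hsp110, Hsp90 alpha, small Hsp, J-domain (Dnaja, Dnajb and Dnajc), chaperonin (Cct, Tcp1, Hspd1 and Hspe1), Bag and prefoldin families. It also took the Hsp90 co-chaperones Stip1, Ahsa1, Chordc1, Fkbp4 and Cacybp. The endoplasmic reticulum chaperones Hspa5, Hsp90b1 and Dnajb9 were left out by that choice, although 4 J-domain proteins of that compartment (Dnajb11, Dnajc1, Dnajc3 and Dnajc10) are included. The choice gave 82 of the 12393 genes that have a probe set of their own, measured on 162 probe sets. Of these, 67 reached a level of 5 (the mean log2 value of both arrays) and were compared, and 15 lay under it. Hsp90ab1, Hspa13 and Hspa12a were not analysed here, and Dnajc19 was left out because its probe sets also carry the name of a pseudogene.

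The cells were induced pluripotent stem cells (iPSCs) of the mouse, which are body cells reprogrammed to a pluripotent state. All cells were cultured in mouse embryonic stem cell medium with serum and 2i, a pair of kinase inhibitors that keeps such cells in the naive state. One group is labelled hybridized and the other live, with 1 sample and 1 array each. The labels name neither the agent or probe of the hybridization nor the cell line, its clones or the number of cultures. With 1 array per group no replicate error and no test can be given, so precision is limited by how few arrays there are. Differences are given as hybridized minus live on the log2 scale, so 1 is a 2-fold difference between these 2 arrays. All 10 pluripotency markers set for the label check, Pou5f1, Sox2, Nanog, Zfp42, Esrrb, Klf4, Tdgf1, Utf1, Dppa5a and Fgf4, were above the level on average, with differences from -0.70 to 0.14. The median of all 7262 genes compared was -0.165, so each group is also set against that value. The 18 spiked hybridization controls had a median difference of -0.80 and ranged from -1.22 to -0.15. Centring on their median adds 0.80 to every difference below.

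Chaperones bind unfolded or partly folded proteins and help them to reach or regain their native structure. Hsp70 proteins work in cycles of ATP hydrolysis that J-domain proteins stimulate and that nucleotide exchange factors, such as the Bag proteins, Hspbp1 and the Hsp110 proteins, reset; clients can pass on to Hsp90 or to the ring-shaped chaperonin, which prefoldin supplies. One set of these genes is expressed in all growing cells, while another is strongly induced by the transcription factor Hsf1 after heat or other proteotoxic stress.

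Most chaperone genes read within 2-fold on both arrays. Of the 67 genes compared, 59 lay within 2-fold, 2 were higher in the hybridized sample by 2-fold or more and 6 lower. Over all genes compared, 8.43% were 2-fold higher, 15.4% were 2-fold lower and 23.8% were apart in either direction, against 11.9% of the chaperone genes. The median chaperone gene differed by -0.13, beside -0.165 for all genes. In such bulk RNA a lower share of cells with a transcript and less of it per cell cannot be told apart. Differences narrow with signal on these arrays, and chaperone genes read brighter than most, with a median level of 10.8 against 9.20 (means of the 2 log2 values). At a level of 11 or more, 1 of 28 chaperone genes was 2-fold apart (3.57%), beside 6.31% of all genes at that level. From 9 to under 11 it was 3 of 21 (14.3%, beside 19.7%), from 7 to under 9 it was 4 of 11 (36.4%, beside 33.1%), and from 5 to under 7 it was 0 of 7 beside 36.2%. The chaperone share was thus near that of all genes from 7 to under 9 and below it in the other ranges, on small counts.

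**Figure D1:**
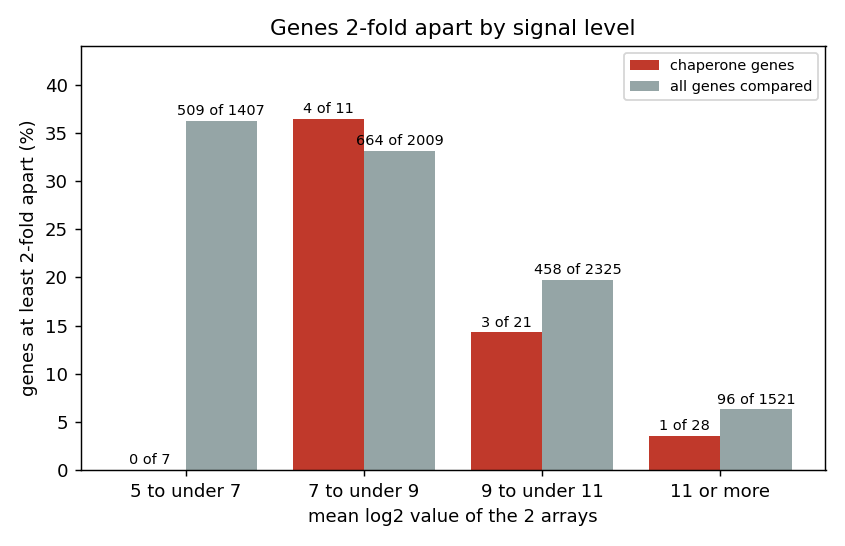
Share of genes at least 2-fold apart between the arrays (vertical axis, %) by mean log2 value (horizontal axis), for chaperone genes (red) and all genes compared (grey); the numbers over the bars are counts. The share falls toward high signal in all genes, to 6.31% at 11 or more, where 1 of 28 chaperone genes was 2-fold apart.

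Among the Hsp70 and Hsp110 genes, Hspa8, Hspa9, Hspa4 and Hspa14 lay above the median gene on their brightest probe sets, and Hspa1b, Hsph1 and Hspa2 below it. Hspa8, the constitutive cytosolic Hsp70, read 13.63 on the hybridized array and 13.47 on the live array. Hspa9, the mitochondrial Hsp70 also called mortalin, read 13.03 and 12.38, and Hspa4, an Hsp110-type exchange factor, 12.20 and 12.19. By contrast Hspa1b, the classical inducible Hsp70, read 9.80 against 10.77, a difference of -0.97. Its second probe set at the level, which carries the suffix _x_at, read 5.23 against 6.39 and differed by -1.16. The unsuffixed probe set of Hspa1b was under the level at 4.12 against 5.01. Hspa1a, its near-identical neighbour, was under the level at 2.32 and 3.15; since both genes share nearly all of their sequence, the values of this pair are uncertain. Hsph1, the heat-inducible Hsp110, read 11.55 against 12.37 on its brightest probe set, a difference of -0.82, but 10.48 against 9.09 on the other, so its direction was not settled by these arrays. Hspa2, an Hsp70 best known from the testis, read 6.92 against 7.51. None of the 7 genes of this class at the level was 2-fold apart, and the class median was 0.01.

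Hspa14 and Dnajc2 encode the Hsp70 and the J-domain partner of the ribosome-associated complex, which meets nascent chains as they leave the ribosome. Hspa14 read 11.76 in hybridized and 11.12 in live cells. Dnajc2 read 12.22 and 11.61. The partners thus differed by 0.64 and 0.61, both above the median gene and both under 2-fold. Their second probe sets differed by 0.24 and 0.18, in the same direction but less, and another probe set of Dnajc2 at the level differed by -0.96.

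The small heat shock proteins, which hold unfolded proteins in a state from which they can be refolded, had the lowest median of any class with more than 1 gene at the level. Only 3 of its 6 genes reached the level, and the median was -0.75, beside -0.165 for all genes; it was 0.05 after centring on the hybridization controls and 0.24 with the mean over probe sets. Hspb1, known as Hsp25 in the mouse, read 9.94 in hybridized and 11.29 in live cells, a 2.55-fold difference. Its second probe set read 9.45 against 10.69, a difference of -1.24. Hspb1 was thus the only one of the 2-fold chaperone genes to repeat at 2-fold on a second probe set at the level. Both Hspb1 probe sets carry a suffix (_a_at and _x_at), so the gene drops out when suffixed probe sets are left out. Hspb8, which acts with Bag3 in the removal of misfolded proteins, read 10.40 against 11.15, but 6.81 against 4.74 on its second probe set. Hspb11, whose product works in intraflagellar transport rather than as a typical chaperone, read 8.29 and 8.24. Hspb2, Hspb3 and Hspb7, genes known mainly from muscle, were under the level.

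Promoters of the chaperone genes were searched for heat shock elements. A heat shock element, bound by Hsf1, is a run of adjoining units NGAAN and NTTCN in alternation. RefSeq promoter sequences (build GRCm38.p6, 300 bases ending 50 bases after the start) were held for 68 of the 82 genes. They were searched on both strands for 3 such adjoining units beginning with either one, where matches can overlap. Of all 32851 promoters, 0.603% held such a run, beside 7 of 87 promoters of chaperone genes (8.05%). By gene these were Hspd1, Hspe1, Hsph1 and Chordc1, 4 of the 17 genes with an entry from the heat-inducible list described below, and Dnajb6. A search for runs of 2 adjoining units, NGAAN then NTTCN or the reverse order, was added after the first. Such runs were in 15.1% of all promoters and, counted by gene, in 17% of all 27025 genes. By gene they were in 12 of the 17 heat-inducible genes with an entry (70.6%). Of the 51 other chaperone genes with an entry, 8 held one (15.7%). The heat-inducible list holds genes known as heat shock factor targets, so a higher share of either run is built into that choice of genes. The first 2 stretches below are shown because they hold a full run. The other 2 belong to Hspb1 and Hspa1b, the inducible genes furthest below the live sample, and hold runs of 2 units. Capitals mark the matched bases, and all stretches end upstream of the start site.
Hspe1 and Hspd1, chr1:55088008-55088107, + strand: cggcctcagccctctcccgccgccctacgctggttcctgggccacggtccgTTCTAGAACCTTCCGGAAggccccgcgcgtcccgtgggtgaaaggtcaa
Dnajb6, chr5:29735798-29735897, + strand: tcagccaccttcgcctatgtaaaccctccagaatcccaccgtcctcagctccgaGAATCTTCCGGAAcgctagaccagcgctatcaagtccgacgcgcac
Hspb1, chr5:135887769-135887868, + strand: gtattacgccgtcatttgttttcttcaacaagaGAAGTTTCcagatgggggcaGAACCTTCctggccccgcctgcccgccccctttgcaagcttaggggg
Hspa1b, chr17:34959289-34959388, - strand: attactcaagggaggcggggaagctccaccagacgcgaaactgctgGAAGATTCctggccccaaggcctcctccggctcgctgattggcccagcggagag
The first stretch lies between Hspe1 and Hspd1, which are read in opposite directions from it. A match describes letters and does not show that a factor bound there in these cells.

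Of the list of 20 genes known to be induced by heat, 19 were on the array under a name of their own and 17 reached the level. This list, of genes known as heat shock factor targets, was also chosen with earlier results of these data known. Among the 17, 1 was 2-fold lower, 0 were 2-fold higher, 12 were below 0 and 4 above; of all 7262 genes compared, 15.4% were 2-fold lower, 8.43% higher and 4247 were below 0. The median was -0.25, beside -0.165 for all genes and -0.07 for the other 50 chaperone genes; centred on the hybridization controls it was 0.55, beside 0.635 for all genes. The list was not uniform. Hspa8, Hsp90aa1 (13.88 and 13.78), Dnaja1 (11.83 and 11.70), Cacybp (12.17 and 11.97), Chordc1 (11.63 on both arrays) and Hspe1 (12.72 and 12.73) differed by at most 0.20 on their brightest probe sets. The second probe sets of Hspa8 and Hspe1 differed by more, at -0.37 and 0.39. At the other end stood Hspb1, Hspa1b, Hsph1 and Hspb8, with differences of -0.75 or lower on the brightest probe set.

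The list was also split by signal, a division made after the values were seen. The 6 genes at levels from 9 to under 11 were all below both 0 and the median gene (-0.165). They were Hspb1, Hspa1b, Hspb8, Fkbp4 (9.76 against 10.27), Dnajb1 (10.41 against 10.84) and Stip1 (10.68 against 10.96). Their median was -0.63, beside -0.07 for all genes at that level. Over all levels, 4247 of the 7262 genes compared were below 0 and 3631 below the median gene. Those shares were not counted for the range from 9 to under 11. With 0.80 added, 4 of the 6 genes would be above 0, Hspb8 only at 0.05. The 9 genes at 11 or more had a median of 0, beside -0.06 for all genes there. Bag3 (6.91 and 7.07) and Dnajb4 (5.05 and 5.31) were the only others at the level. Fkbp4 repeated on its second probe set at -0.79 and Dnajb1 at -0.21, whereas Hspb8 reversed; Stip1 has a single probe set.

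Markers of another cell type were also read on these arrays. Of 17 fibroblast markers, 4 reached the level, Col5a1 at -2.15, Col1a1 at -1.71, Fn1 at -0.53 and Vim at -0.15. All 4 were below 0, as were 4247 of all 7262 genes compared. Col1a1 reached the level through the live array alone (4.46 against 6.17), so its sign is tied to the level limit. Under the level, Col3a1 (0.19), Dcn (0.18), Col1a2 (0.04) and Snai2 (0.03) were above 0 and the other markers below. Furthest below were Pdgfrb (3.62 against 5.22, a difference of -1.6) and Twist1 (4.15 against 5.37, a difference of -1.22). Both passed 5 on the live array alone. Fn1 and Vim are also made by pluripotent cells. Summed on the linear scale, the 4 markers at the level read 9700 in hybridized and 11580 in live cells. Nearly all of these sums came from Vim (12.92 and 13.07) and Fn1 (10.88 and 11.41), so they do not measure fibroblasts. Col1a2, Col3a1, Dcn, Lum and Postn were under 3 on both arrays. The part of another cell type in the values of Hspb1 and the other inducible genes was not tested.

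**Figure D2:**
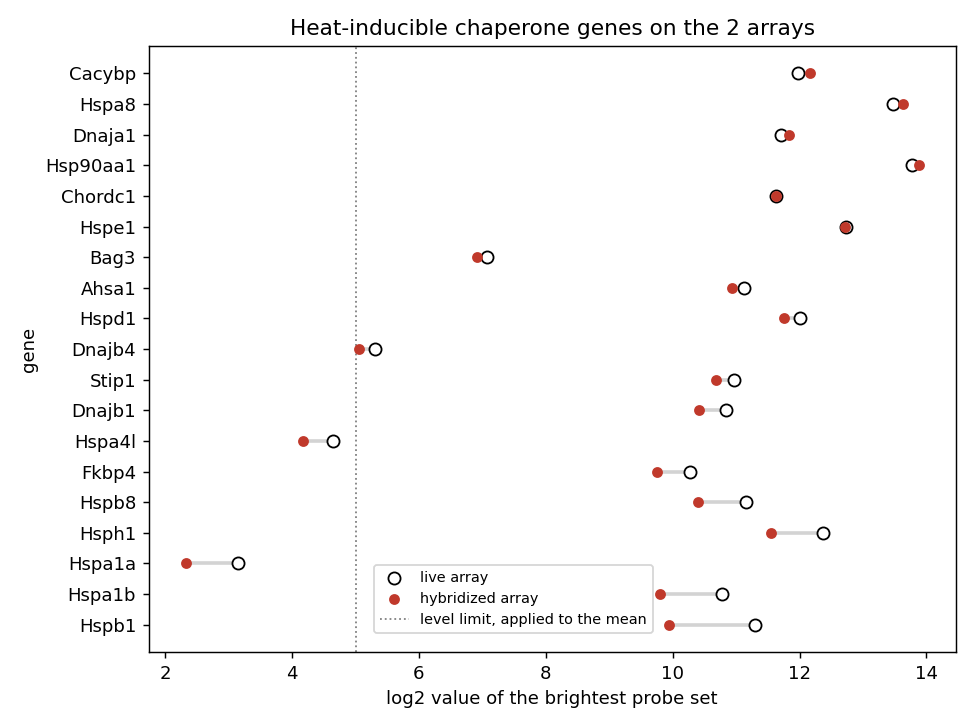
Log2 values (horizontal axis) of 19 heat-inducible chaperone genes on the hybridized array (red) and the live array (open), each on its brightest probe set and ordered by difference. Cacybp, Hspa8, Dnaja1 and Hsp90aa1 read slightly higher in the hybridized sample, and Hspb1 at 9.94 against 11.29 is furthest below. Adding 0.80 for the hybridization controls would leave Hspb1, Hspa1b, Hsph1 and Hspa1a, which is under the level, below 0. Hsph1 (-0.02), Hspa1a (-0.03) and Hspb8 (0.05) would then lie near 0. The controls ranged from -1.22 to -0.15, so the side of 0 on which these genes fall is not settled.

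Hsp90 and its co-chaperones showed no 2-fold difference in any of the 6 genes measured. Hsp90aa1, the Hsp90 alpha isoform, differed by 0.10, and its second and dimmest probe sets by -0.12 and -0.25. Ahsa1, which activates the Hsp90 ATPase, read 10.93 against 11.12. Stip1, also called Hop, which hands clients from Hsp70 to Hsp90, differed by -0.28, and Fkbp4, a partner of steroid receptors, by -0.51. Chordc1 and Cacybp, further Hsp90-binding proteins, differed by 0 and 0.20. The class median of -0.095 was within 0.07 of that of all genes.

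The cytosolic chaperonin, a double ring that folds actin and tubulin, is built of 8 different subunits, and all 8 were measured at high signal. Their brightest probe sets lay between -0.63 and 0.45, with 6 below 0, 2 above and none 2-fold apart. Cct8 (12.43 against 11.98) and Cct2 (12.86 against 12.82) were above 0. Cct4 (13.42 against 13.55), Cct5 (12.39 against 12.42) and Cct7 (11.85 against 11.95) differed by -0.13 to -0.03. The second probe sets of Cct2 and Cct7, also at high signal, differed by -0.54 and -0.94. Tcp1 (12.24 against 12.70), Cct6a (12.92 against 13.45) and Cct3 (12.23 against 12.86) differed by -0.46, -0.53 and -0.63. The median of these subunits was -0.115, close to that of all genes, and centring on the hybridization controls would make each of them positive. Cct6b, a testis form of Cct6a, was under the level at 4.57 and 3.27.

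Both genes of the mitochondrial chaperonin lay within the range of the cytosolic subunits. Hspd1, or Hsp60, read 11.76 against 12.01, and its lid Hspe1, or Hsp10, 12.72 against 12.73; these are the genes that share the first stretch shown above. The second probe set of Hspe1 differed by 0.39. With Hspa9, Dnaja3, a mitochondrial J-domain protein (11.31 and 11.38), Dnajc11 (8.79 and 9.09) and Dnajc15, a partner of the protein import motor (11.15 and 10.44), the 6 mitochondrial genes of the list had a median of -0.04, with 2 above 0 and 4 below; this median was above 0 with the mean over probe sets (0.2833), without _x_at and _s_at probe sets (0.16), without _a_at as well (0.39), on second brightest probe sets (0.225) and after each centring, loess and quantile normalization. Dnajc30, which is also known from mitochondria but was not on that list, differed by -0.91.

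Prefoldin, a jellyfish-shaped complex that brings actin and tubulin to the chaperonin, had the highest class median on the brightest probe sets; with the mean over probe sets its 0.234 was below Hsp70 and Hsp110 (0.285) and the small Hsps (0.2433). Pfdn5 read 11.69 in the hybridized sample against 10.90 in the live sample. Pfdn2 read 10.90 against 10.65, Pfdn6 read 9.56 against 9.33, and Pfdn1 read 11.62 against 11.69. All 4 genes were above the median gene, none was 2-fold apart, and their median was 0.24. Pfdn5 differed by 0.65 on its second probe set. Vbp1, another prefoldin subunit that the family name does not catch, read 12.60 against 12.21.

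**Figure D3:**
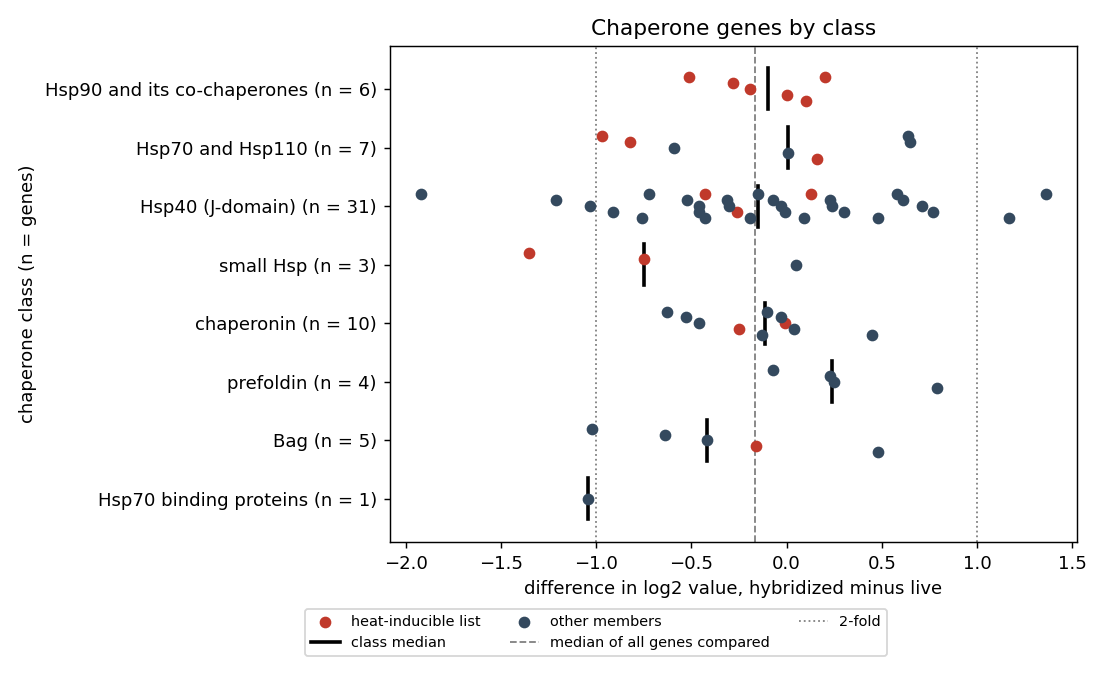
Difference in log2 value, hybridized minus live (horizontal axis), for the 67 chaperone genes compared, by class; each point is a gene, red for the heat-inducible list, and the black bar is the class median. Class medians run from -0.75 for the small Hsps to 0.24 for prefoldin among classes of more than 1 gene; adding 0.80 for the hybridization controls would move the medians of these classes to 0 or above.

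The J-domain proteins were the largest class, with 31 genes at the level. Of these, 2 were 2-fold higher and 3 lower, together 16.1% beside 23.8% of all genes, and their differences ran from -1.92 to 1.36 around a median of -0.15. Dnaja2, a cytosolic type A partner of Hsp70, was the highest at 11.62 against 10.26, and its second probe set differed by 0.38. Dnajc24, which takes part in making diphthamide on an elongation factor, read 8.46 against 7.29 and differed by 0.66 on its second probe set. Dnajb5 was the lowest of all chaperone genes at 6.79 against 8.71, and its second probe set differed by -0.98. Dnajb12, anchored in the membrane of the endoplasmic reticulum with its J-domain in the cytosol, read 7.45 against 8.66 and repeated at -0.93. Dnajc8, a protein of the spliceosome with a single probe set, read 10.62 against 11.65. Adding 0.80 left Dnajb5 2-fold lower at -1.12, while Dnajb12 at -0.41 and Dnajc8 at -0.23 were then within 2-fold. The brightest probe set of Dnajb5 carries the suffix _s_at. Without _x_at and _s_at probe sets Dnajb5 was within 2-fold at -0.98, even before 0.80 is added.

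The remaining 26 J-domain genes at the level lay within 2-fold on their brightest probe sets. Dnajb6, which holds back protein aggregation and whose promoter stretch is shown above, read 12.67 and 12.58 there, but differed by 0.50, 2.98 and 0.96 on its other probe sets at the level. Dnajb1, a main cytosolic partner of Hsp70, differed by -0.43, and Dnajc7, a co-chaperone of both Hsp70 and Hsp90, read 10.35 and 10.50. Dnaja1 differed by 0.13 and by 0.04 on its second probe set. Dnajc13, of endosomes, differed by -0.46 and Dnajc9, a histone chaperone, by -0.43. Dnajc12, a partner of aromatic amino acid hydroxylases, was further off at -0.76. Of the 4 J-domain proteins of the endoplasmic reticulum, Dnajc3 (10.86 against 10.09) and Dnajc1 (5.54 against 5.06) were above 0, Dnajb11 differed by -0.01, and Dnajc10, which reduces disulfides, by -0.72. Under the level were Dnaja4, Dnajc28, Dnajc5b, Dnajb3, Dnajb7 and Dnajb8; Dnajc28 (mean 4.72) was the chaperone gene nearest under it and Dnajb4 (mean 5.18) the nearest above.

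Of the exchange factors of Hsp70 in the Bag family, 4 of 5 at the level were below 0 as deposited and Bag6 above, and Hspbp1 was 2-fold lower. Hspbp1, which releases nucleotide from Hsp70, read 8.69 against 9.73 on its single probe set, a difference of -1.04. Hspbp1 was within 2-fold after centring on the median gene (-0.875), after loess (-0.946) and after centring on the hybridization controls (-0.24). Bag4 read 8.19 against 9.21 on its brightest probe set but was 0.23 higher on its second, so its 2-fold difference did not repeat. Bag1, the founding Bag protein, read 10.54 against 11.18 and Bag5 7.40 against 7.82. Bag3 differed by -0.16. Bag6, which guides tail-anchored and misplaced membrane proteins, read 10.86 against 10.38. The 5 Bag genes at the level had a median of -0.42, which is -0.255 relative to all genes and became 0.38 after centring on the hybridization controls and -0.08 after the loess correction for level. Bag2 was under the level.

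Probe sets of the same chaperone gene often disagreed. For 34 of the genes compared a second probe set at the level was present, and it shared the sign of the brightest in 24. Over all 2720 such genes the sign was shared in 1732. Of 6 chaperone genes 2-fold apart for which such a probe set was present, 1 repeated at 2-fold in the same direction, beside 197 of 545 among all genes. Over 54 chaperone probe sets at the level other than the brightest, 14.8% were 2-fold higher and 5.56% lower; over all 4145 such probe sets the shares were 21.3% and 8.37%. Among the brightest probe sets of the chaperone genes the balance ran the other way, with 2 higher and 6 lower, as it did for all genes (8.43% higher and 15.4% lower).

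The widest gaps were upward at a dimmer probe set. For Cct3 the brightest probe set read 12.23 against 12.86, while another read 9.76 against 5.37, a difference of 4.39. Dnajb6 differed by 0.09 on its brightest probe set and by 2.98 on another at 10.85 against 7.87. Hspa4 differed by 0.01 and, on another, by 2.21. The lower-signal probe sets of Dnajc3 (2.38), Hspb8 (2.07), Hsph1 (1.39) and Dnaja3 (1.28) also stood above those of the same gene with the highest signal. In the other direction Dnajc2 differed by 0.61 on its brightest probe set and by -0.96 on another, and Dnajc11 by -0.30 and -1.37. On the same arrays the 5' control probe set gained over the 3' one by 2.52 (Actb), 1.81 (Gapdh) and 0.50 (Tfrc) in hybridized cells; where the chaperone probe sets lie in their transcripts was not analysed here, and the part of this gain in their values was not tested.

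**Figure D4:**
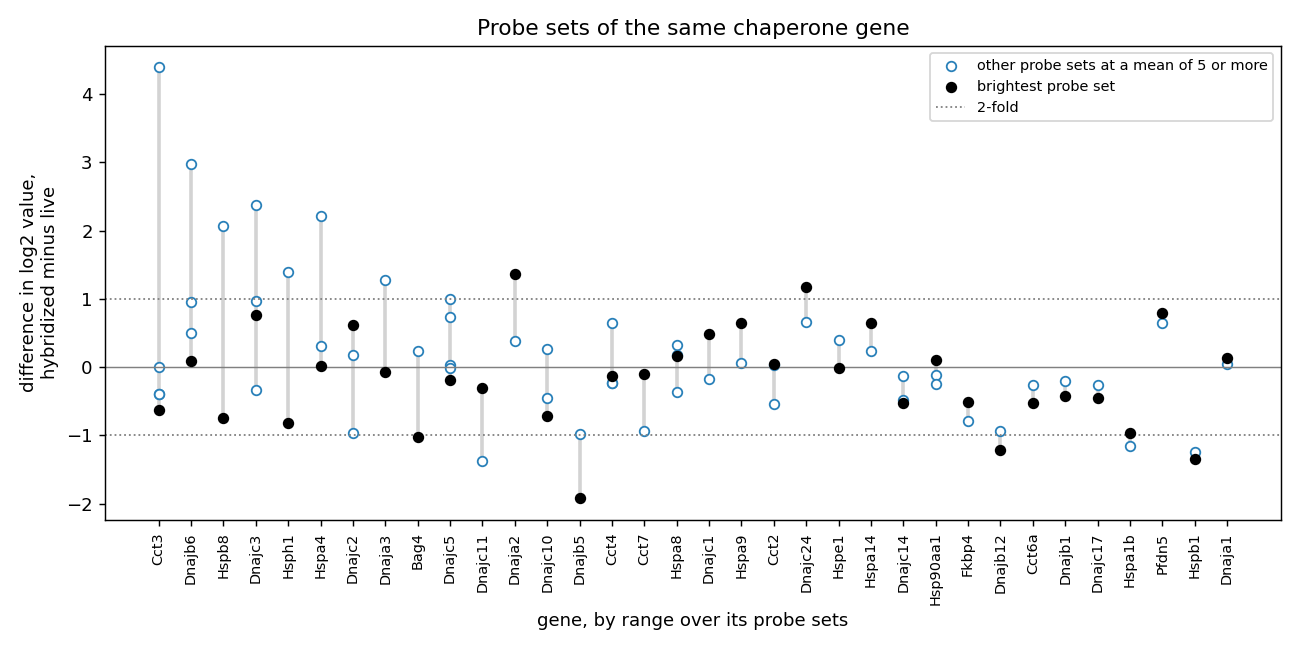
Difference in log2 value, hybridized minus live (vertical axis), for each probe set with a mean of 5 or more of the 34 chaperone genes that have at least 2 (horizontal axis); black points are the brightest probe sets and open points the others. Genes at the left span up to 5.02 log2 units, with the open points mostly above the black one, while Hspb1, Hspa1b and Pfdn5 at the right repeat closely.

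Of 25 further chaperone factors outside the named families, 22 were on the array under a name of their own and all reached the level. Their median was -0.05, and 6 of them, or 27.3%, were 2-fold apart, near the 23.8% of all genes. Higher in the hybridized sample were Txndc9, a cofactor of the cytosolic chaperonin (11.44 against 9.58), Clpx, the unfoldase of a mitochondrial protease (8.85 against 7.02), Hscb, the J-domain protein of iron-sulfur cluster assembly (6.85 against 5.52), and Sugt1, an Hsp90 co-chaperone (12.35 against 11.18). Lower were Stub1, the ubiquitin ligase CHIP that marks chaperone clients (9.63 against 11.15), and Unc45a, a myosin chaperone, which differed by -1.89. Cdc37, which brings kinases to Hsp90, differed by -0.74, and Trap1, the mitochondrial Hsp90, by -0.46. Hsf1 was not analysed here; Hsf2 differed by -0.77. The endoplasmic reticulum chaperones left out of the families, Hspa5 and Hsp90b1, read above the live sample, and Dnajb9 differed by -0.20.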

How the data were processed

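RNA from 1 hybridized and 1 live sample of mouse iPSCs was extracted with Trizol LS, amplified and biotin-labelled as cDNA, per the labels' protocols. The authors deposited one value per probe set and array, taken as log2 values because the submitters' processing notes name GCRMA and affy and the range is 1.02 to 14.24; the sources used here state no log base, version or genome build. GCRMA adjusts background by probe base composition, so the lowest values cannot be ordered, and probe sets of different genes are not on one scale of abundance. Of 22690 probe sets, 20380 have 1 gene in the platform table, 691 several and 1555 none among those that are not controls (64 are). Probe sets with 1 gene were used, and each gene took its probe set with the highest mean. Genes whose mean reached 5 were compared, and a difference of at least 1 in size was called 2-fold.

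Named genes were those 2-fold apart, bright members of each class and the heat-inducible list; other members were picked as examples with their values in view. Members and lists were chosen with earlier results of these data known. Alternatives were level limits of 4, 7 or none, or on each array; the mean over probe sets; leaving out suffixed probe sets; centring on the median gene or the hybridization controls; loess (span 0.3); quantile normalization; and folds of 1.5 and 4. The second brightest probe set, and leaving out endoplasmic reticulum members, were added after seeing the data. Protein sequences were not used here. The gene-level steps were run on simulated data with planted differences well past the 2-fold limit and less noise than in these data. That run checked the code and says nothing of how reliable the 2-fold calls are. Python 3.11.15, numpy 2.4.6, pandas 2.3.3, statsmodels 0.14.6 and matplotlib 3.10.9 were used.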

Additional observations from a re-analysis of the deposited data

How the results depend on the processing

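No paired analysis was possible because each group has 1 array, and for the same reason no replicate could be left out. A median was taken to have moved when it changed by more than 0.592 divided by the square root of the number of genes. The 0.592 is the standard deviation, over 34 chaperone genes, of the second brightest minus the brightest difference, divided by the square root of 2. Genes on 1 pair of arrays are not replicates, so this limit sorts the settings and measures no precision. A count was taken to have moved when it changed by a factor of more than 1.5 or to 0, whatever the number of genes compared. Level limits moved the Hsp70 and Hsp110 median to -0.235 (limit 4) and that of the small Hsps to -0.23 (no limit). The mean over probe sets gave 0.285 for Hsp70 and Hsp110, 0.2433 for small Hsps and 0.2833 for mitochondrial genes. Without _x_at and _s_at the cytosolic and other genes had -0.24. Without _a_at as well, the cytosolic and other genes had -0.255, genes not heat-inducible -0.19 and mitochondrial genes 0.39. The small Hsps then had -0.35, over 2 genes without Hspb1. Centred on the median gene, 3 members were 2-fold lower (11.5% of all genes), and medians were 0.035 for members, 0.015 for J-domain genes, -0.085 for heat-inducible genes, 0.095 for the others and 0.005 for cytosolic and other genes. Centred on the hybridization controls, 18 were 2-fold higher and 1 lower, beside 31.8% and 2.84% of all genes; medians were 0.67 for members, 0.705 for Hsp90, 0.81 for Hsp70 and Hsp110, 0.65 for J-domain genes, 0.05 for small Hsps, 0.685 for chaperonins, 1.04 for prefoldin, 0.38 for Bag, -0.24 for Hspbp1, 0.55 for heat-inducible genes, 0.73 for the others, 0.76 for mitochondrial, 1.035 for endoplasmic reticulum and 0.64 for cytosolic and other genes. After loess, 3 were 2-fold lower (9.75% of all genes), with medians of 0.022 for members, 0.0321 for J-domain genes, -0.0805 for Bag, 0.0271 for genes not heat-inducible and -0.0186 for cytosolic and other genes. On second brightest probe sets 3 of 34 were 2-fold lower (9.04% of all genes), beside 6 of 67 (8.96%) as reported. The count thus fell with the number of genes and the share was nearly the same. Medians on second brightest probe sets were -0.455 for Hsp90, 0.415 for small Hsps, -0.335 for chaperonins, 0.65 for prefoldin, 0.23 for Bag (Bag4 alone, which reversed), 0.225 for mitochondrial and -0.17 for endoplasmic reticulum genes. At 1.5-fold 8 were higher and 15 lower (17.5% and 29.9% of all genes); at 4-fold 0 were apart in either direction (1.2% higher and 1.56% lower of all genes). Apart from the construction of each alternative, the cause was not tested. The heat-inducible median minus that of the other chaperone genes was -0.18 as reported. Both centrings shift all genes alike and cannot change this gap. It was -0.055 with the mean over probe sets and -0.03 without suffixed probe sets. The last setting kept 14 of the 17 heat-inducible genes and 43 of the 50 others. Hspb1, Hspa1b and Hsph1, the heat-inducible genes at the level furthest below 0, dropped out, so that gap is not one of the same genes.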
